A study of Arabidopsis thaliana with 6 samples.

Results

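WES1 (AT4G27260, also known as GH3.5) encodes a GH3 acyl acid amido synthetase of Arabidopsis thaliana, an enzyme that joins auxin to amino acids. It was measured by 1 of the 22746 probe sets tested, the single one whose platform annotation names WES1 and no other gene. These probe sets name 13350 genes singly. The gene was chosen for its pattern on these same arrays, a stepwise fall from prolonged darkness to light to normal CO2. Its levels, differences and ranks are therefore given as a description, without a test. The 6 arrays came from whole rosettes of the pgm mutant in the Col-0 background, 5 to 6 weeks old, with 2 biological replicates (A and B) in each of 3 groups. The groups, each held for 4 hours, were normal CO2 in light, low CO2 in light, and low CO2 in prolonged darkness. All of them carried the pgm mutation, which removes plastidic phosphoglucomutase and with it almost all leaf starch, and no wild-type array was used here. Each RNA came from pooled rosettes. The labels give 15 as ground but 4 harvests of 3, and which number holds is not settled. The title of the series names sugar from carbon fixation and light as the matters studied.

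Auxin (indole-3-acetic acid) is the hormone that controls much of plant cell growth, and its free level in a cell is set by synthesis, transport, oxidation and conjugation. GH3 enzymes of the auxin-conjugating group take free auxin out of use by attaching an amino acid, and their genes are themselves switched on by auxin through the Aux/IAA repressors and the auxin response factors. WES1 joins auxin to aspartate and also acts on salicylic acid, and plants that overexpress it are dwarfed.

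WES1 had MAS5 intensities of 29.5 and 25.9 at normal CO2 in light, 95.2 and 114.5 under low CO2 in light and, in darkness, 302.9 and 399.8, replicate A first in each pair. The 3 groups did not overlap, and the order of the groups was the same in both replicates. Group means were 27.7 ± 2.55, 104.8 ± 13.7 and 351.4 ± 68.5 in the same order (SD, n = 2). The gap between the lowest dark array and the highest array of low CO2 in light was 188.4 intensity units, and the next gap down, to the higher array of normal CO2, was 65.7.

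**Figure D1:**
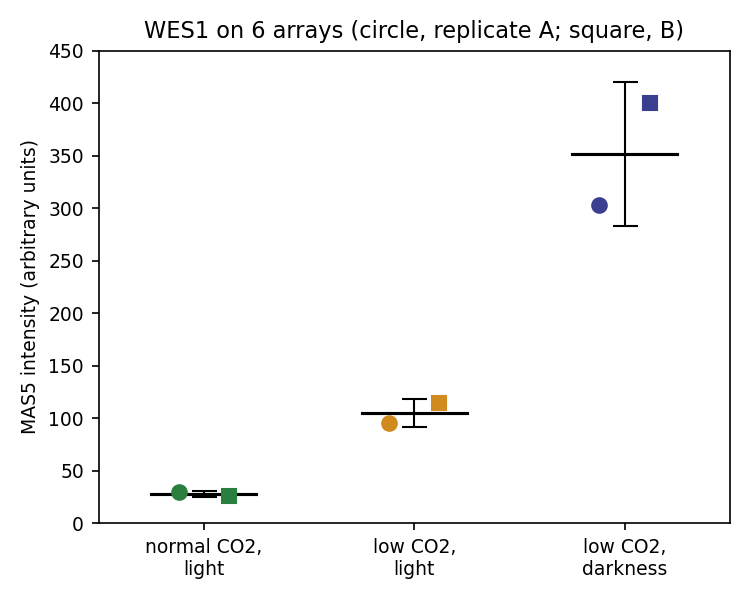
MAS5 intensity of WES1 (y axis, arbitrary units) on each of the 6 arrays, by treatment (x axis); circles are replicate A, squares replicate B, long bars the group mean and error bars the SD (n = 2). The arrays of normal CO2 lie at 25.9 and 29.5, those of low CO2 in light at 95.2 and 114.5, with darkness at 302.9 and 399.8.

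The mean at normal CO2 in light was 3.79-fold lower than that at low CO2 in light, which in turn was 3.35-fold lower than that in darkness. Across both changes together the difference was 12.7-fold. The arrays of normal CO2 had WES1 below their medians over all probe sets, 39.55 (A) and 36.1 (B), and without detection calls the share of background in 29.5 and 25.9 is unknown, so the folds against normal CO2 carry that limit. By replicate, the level at normal CO2 was 3.23-fold (A) and 4.42-fold (B) lower than at low CO2 in light. On the scale log2(intensity + 7.3), the difference of normal minus low CO2 in light, called the CO2 step here, was -1.68 ± 0.19 (SE, n = 2 per group), with -1.48 for replicate A and -1.88 for B. The light step, which is light minus darkness under low CO2, was -1.67 ± 0.19, with -1.60 and -1.74. The CO2 step less the light step came to -0.01 ± 0.33 (SE). With 1 added in place of 7.3 the CO2 and light steps were -1.88 and -1.73, and with 32 they were -1.19 and -1.48. Which of the steps is the larger thus depends on that constant. In rosette RNA, fewer cells that express the gene and less RNA of it per cell cannot be told apart.

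The order of the groups was shared by many probe sets, and the size of both steps by few. All dark arrays lay above all arrays of low CO2 in light, and those above all arrays of normal CO2, for 1369 probe sets, 6.02% of those tested, and the reverse order held for 1239 (5.45%). A fall of at least 1 on the log2 scale in both steps was seen for 28 probe sets (0.123%), and 25 of them (0.11%) also kept the strict order. Ranked from the largest fall, WES1 stood at place 36 of 22746 for the light step, at 434 for the CO2 step and at 59 over both. Ranked by the smaller of its 2 falls it stood at place 3, and at place 2 of the 13513 probe sets with a single gene name. Just ahead of it was a probe set without a single gene name, whose smaller fall was -1.82, and behind AT2G28400 and that probe set came WES1 at -1.67. Next after it was SIS (AT5G02020), a serine-rich salt-induced gene, with -1.62 in the light step and -4.22 in the CO2 step. The gene in the first place, AT2G28400, had -2.10 and -1.84. With a pseudocount of 1 or 32 in place of 7.3 the place of WES1 was 67 or 21 for the light step and 5 or 6 by the smaller fall. Leaving out single arrays moved the place of WES1 by its smaller fall to between 3 and 12, the latter without replicate B of low CO2 in light. Its place in the light step alone became 20 without replicate A of darkness, 101 without its replicate B, and 75 without replicate A of low CO2 in light.

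**Figure D2:**
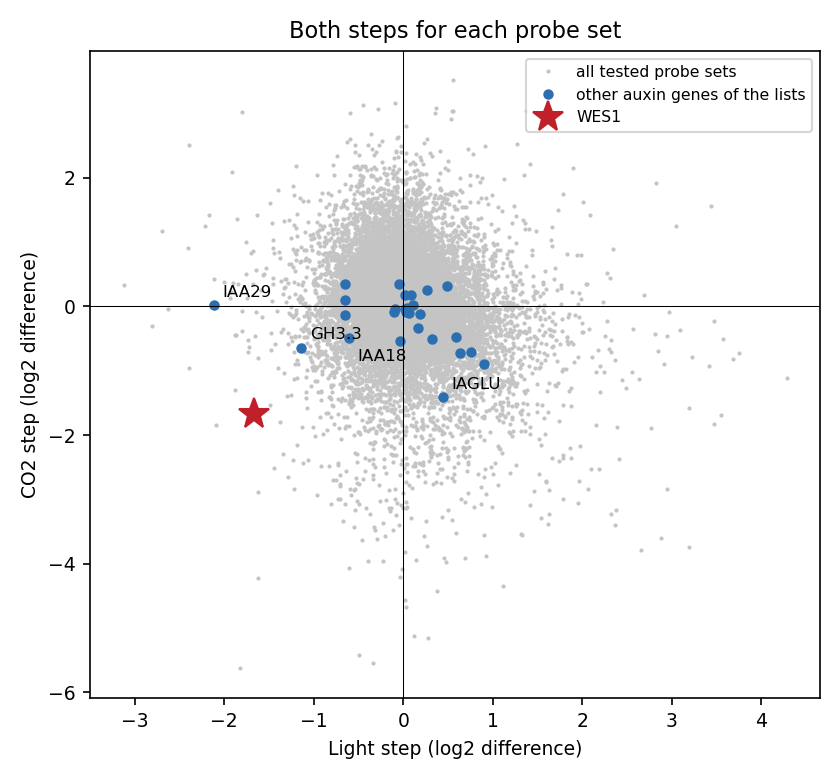
Each point is a probe set, with the light step on the x axis and the CO2 step on the y axis (both log2 differences of group means, n = 2 per group); grey points are all 22746 tested probe sets, blue points the other measured auxin genes and the red star WES1. WES1 lies at -1.67 and -1.68, in the sparse lower left, while IAA29 lies at -2.11 and 0.02.

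The other genes of the auxin pathway were taken from lists that were drawn up by function. Of the 210 genes in 13 lists, 31 had a named probe set, WES1 included, and 7 lists had 0 measured members. The auxin conjugate hydrolases, auxin transporters, auxin receptors, auxin response factors, SAUR genes, auxin-repressed dormancy genes and jasmonate genes were therefore not assessed. Among the remaining auxin lists, 27 genes beside WES1 were measured. They were tested with limma over all 22746 probe sets, with Benjamini-Hochberg adjustment and a threshold of 0.05. In the CO2 step 4 of 27 fell and 0 rose, where 6.2% of all probe sets fell and 8.4% rose. In the light step limma called 0 of 27 in either direction, where 0.193% of all probe sets were lower and 0.849% higher. At an unadjusted limma p under 0.05 there were 6 of the 27 genes, and 3758 of all 22746 probe sets. Over both steps, normal CO2 in light against low CO2 in darkness, 3 of 27 fell and 0 rose, beside 9.13% and 11.3% of all probe sets. The arrays scaled to a common median gave 1742 lower and 1574 higher probe sets in the CO2 step and 2539 lower and 2139 higher over both, against 1410 and 1911, and 2077 and 2578, as deposited. Without replicate A or replicate B of normal CO2, 0 of all probe sets passed in the CO2 step (5835 and 4779 at an unadjusted limma p under 0.05). Every fit with 5 arrays has fewer residual degrees of freedom, and the cause of the lost calls was not tested. For the 4 genes that fell, both arrays of normal CO2 lay below both of low CO2 in light. Without 1 array of normal CO2 their values were thus bound to stay negative. The medians of the 27 genes were -0.08, 0.04 and -0.06 in the CO2 step, the light step and both together, beside -0.01, 0.02 and 0.03 over all probe sets. Among all 30 measured genes of the lists beside WES1, 8 lay lower and 0 higher without overlap at normal than at low CO2 in light, where 26.6% and 29.6% of all probe sets did. Light against darkness at low CO2 gave 5 lower and 5 higher (22.5% and 23.6% of all), and normal CO2 in light against darkness gave 6 and 4 (26.5% and 31.8%). Arrays of normal CO2 also had higher 3 prime to 5 prime ratios of the ubiquitin control, 1.69 and 1.95 against 1.38 to 1.48 on the 4 arrays of low CO2, and the part of this in the CO2 step was not tested. The other such controls overlapped, GAPDH with 0.949 and 1.08 against 1.02 to 1.13 and actin with 2.16 and 2.6 against 1.97 to 2.84.

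Beside WES1, 11 of the 20 GH3 genes were measured, and their medians of 0.04 in the light step and -0.08 in the CO2 step lay near 0. GH3.3, another auxin-conjugating enzyme and an early auxin-response gene, had 26.5 and 39.8 at normal CO2 in light, 35.5 and 83.3 under low CO2 in light and, in darkness, 36.9 and 416.3. The groups overlapped, and 1 array stood apart, that of darkness replicate B. The light step of GH3.3 was -0.05 for replicate A and -2.23 for B, with -1.14 ± 0.99 overall (limma adjusted p = 0.647). Over both steps it passed in 1 of the 14 alternatives, the fit without replicate A of darkness. WES1 read 399.8 in replicate B of darkness and 302.9 in replicate A.

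GH3.17, which conjugates auxin to glutamate, read 22.5 and 16.8 at normal CO2 in light, 20.6 and 23.4 under low CO2 in light and, in darkness, 39.4 and 37.9. Both groups in light lay below both dark arrays, and they overlapped each other. The transcript fell over both steps together (-0.78 ± 0.21 on the log2 scale, limma adjusted p = 0.0464), and the light step alone was -0.65 ± 0.21 (adjusted p = 0.198). The first call was lost in 9 of 14 alternatives, with adjusted p from 0.0221 to 0.177 over all of them, among them each fit that left out 1 array.

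AT5G51470, listed as a GH3 family member and named on the array by locus alone, was dim throughout. It read 1.3 and 1.3 at normal CO2 in light, 10.3 and 7.1 under low CO2 in light and, in darkness, 0.8 and 1.7. Both arrays of low CO2 in light were above the other 4. It fell in the CO2 step (-0.89 ± 0.15, limma adjusted p = 0.0161), and its light step was 0.90 ± 0.15 (adjusted p = 0.0551). The CO2 step was lower than its light step (difference -1.79 ± 0.26, adjusted p = 0.0445), a difference between steps that 1.21% of all probe sets showed in that direction and 0.673% in the other. That call stood with a pseudocount of 1, a common median and the replicate block. It was lost with a pseudocount of 32, with quantile normalization, where YUC11 passed in its place, without the mean-variance trend and without any 1 array. With values this close to the pseudocount of 7.3 the size depends on it, running from -2.06 with a pseudocount of 1 to -0.29 with one of 32. The call in the CO2 step was lost without replicate A (adjusted p = 0.0829) or replicate B (0.113) of normal CO2, with the value at -0.89 in both fits.

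Of the other 8 GH3 genes, all short of the threshold in each step, 7 stayed below an intensity of 30 on every array. They were GH3.1, GH3.9, AT1G23160, AT5G13350, AT1G48670, AT1G48660 and AT1G48690, and AT5G13380 reached 37.3. At such levels an absent change cannot be told from a probe set that reads mostly background, since the sources used here give no detection calls. GH3.9, a gene studied for its effect on root growth, had 26.4 and 15.5 at normal CO2, 18.6 and 13.4 under low CO2 in light and, in darkness, 10.5 and 13.4. Its step values, 0.26 in the CO2 step and 0.27 in the light step, had signs opposite to those of WES1 (adjusted p = 0.589 and 0.690).

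**Figure D3:**
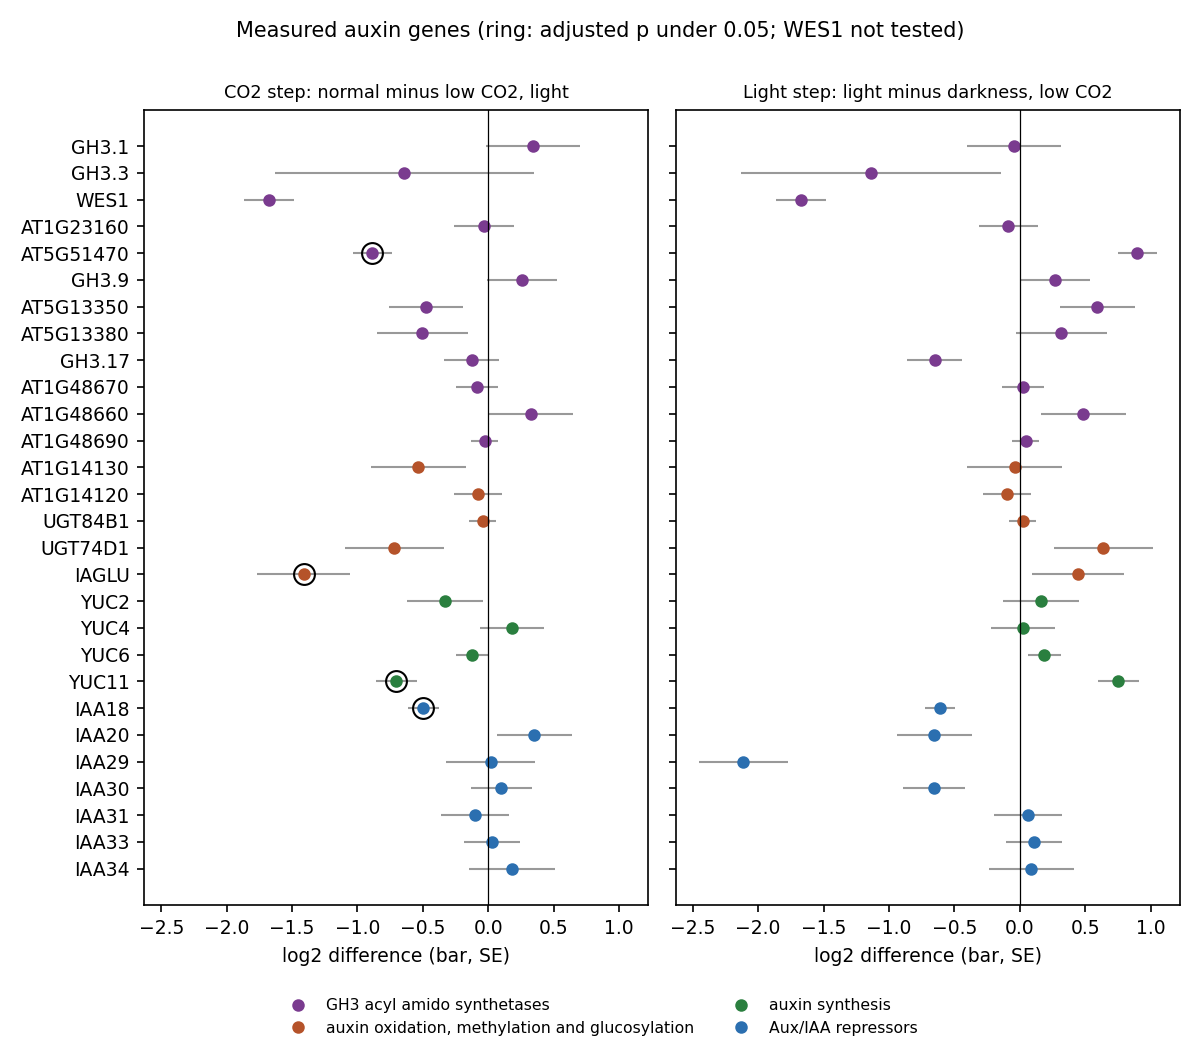
Log2 differences with SE (x axis) of the 28 measured auxin genes (y axis), for the CO2 step on the left and the light step on the right; colours mark the gene lists and black rings an adjusted p under 0.05 in limma, with WES1 shown untested. In the CO2 step AT5G51470, IAGLU, YUC11 and IAA18 are ringed, all below 0, and in the light step no gene is.

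Other routes that remove free auxin were covered by 5 of 8 listed genes. IAGLU (AT4G15550), an indole-3-acetate glucosyltransferase, had 112.3 and 84.4 at normal CO2 in light, 396.9 and 184.8 under low CO2 in light and, in darkness, 178.2 and 218.1. Both arrays of normal CO2 lay below the other 4, while low CO2 in light and darkness overlapped. The transcript fell in the CO2 step (-1.41 ± 0.35, limma adjusted p = 0.0465), a call lost in 8 of 14 alternatives (adjusted p from 0.0248 to 0.243). These included the fits without replicate A of low CO2 in light, where the value was -0.88, and without either array of normal CO2 or of darkness. Its light step was 0.45 ± 0.35 (adjusted p = 0.607), with 1.12 for replicate A and -0.23 for B, and the difference between its steps did not pass (adjusted p = 0.158). UGT74D1, a glucosyltransferase that acts on auxin and its oxidised form, read 219.2 and 197.0 at normal CO2 in light, 426.3 and 281.4 under low CO2 in light and, in darkness, 327.7 and 146.9. Its CO2 step of -0.72 did not pass (adjusted p = 0.269). UGT84B1, another auxin glucosyltransferase, stayed between 1.1 and 1.7, and AT1G14120, listed under auxin oxidation, read 0.9 to 4.1. AT1G14130, of the same list, had 37.1 and 35.4 at normal CO2 in light, 83.7 and 36.4 under low CO2 in light and, in darkness, 48.3 and 68.0, with adjusted p of 0.395 and 0.977 in the CO2 and light steps.

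Of auxin synthesis, 4 of 30 listed genes were measured, all of them YUCCA flavin monooxygenases, which make auxin from indole-3-pyruvate. YUC11 read 1.8 and 1.1 at normal CO2 in light, 5.3 and 8.8 under low CO2 in light and, in darkness, 1.4 and 0.9. It fell in the CO2 step (-0.70 ± 0.16, limma adjusted p = 0.0337), and its light step of 0.75 ± 0.16 did not pass (adjusted p = 0.0842). This call ended in 7 of 13 alternatives, and its size ran from -1.70 to -0.22 with the pseudocount. YUC2 read 32 to 60.4, and YUC4 and YUC6 stayed at or below 16.3. None of these 3 passed in either step, with adjusted p of 0.523 and above.

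Aux/IAA proteins repress auxin-response genes and are destroyed when auxin binds its receptor, and many of their genes respond to auxin. Of 29, 7 were measured. IAA18 came closest to WES1, with 197.2 and 197.4 at normal CO2 in light, 289.5 and 273.3 under low CO2 in light and, in darkness, 428.3 and 437.2. Its 3 groups did not overlap and stood in the same order as those of WES1, which made it the 1 gene in this order among the 30 measured genes of the lists beside WES1, where 6.02% of all probe sets kept it. It fell in the CO2 step (-0.50 ± 0.12, limma adjusted p = 0.0399) and over both steps (-1.11 ± 0.12, adjusted p = 0.00368), while the light step was -0.61 ± 0.12 (adjusted p = 0.0709). The call over both steps stood in each of 14 alternatives, at the edge of the threshold without replicate B of normal CO2. That of the CO2 step was lost in 8, including every fit without 1 array, with log2 differences from -0.57 to -0.45 over all. Over the 6 arrays its log2 profile correlated with that of WES1 at r = 0.990, at a smaller size of change.

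IAA29, an Aux/IAA gene known as a target of the PIF transcription factors that accumulate in darkness and shade, had a light step of the same sign as WES1 and a CO2 step near 0. It had 25.3 and 12.2 at normal CO2 in light, 14.2 and 21.5 under low CO2 in light and, in darkness, 124.0 and 80.8. All 4 arrays in light lay below both dark arrays, and the groups in light overlapped. It fell over both steps together (-2.09 ± 0.34, limma adjusted p = 0.0101). The light step was -2.11 ± 0.34, just short of the threshold (adjusted p = 0.0525), and it passed in 5 of 14 alternatives, with adjusted p from 0.0243 to 0.219 over all of them. The CO2 step was 0.02 ± 0.34 (adjusted p = 0.982), and the test of the difference between the steps did not pass (2.13 ± 0.59, adjusted p = 0.114). The call over both steps was lost without replicate B of normal CO2 (adjusted p = 0.0715) and without replicate A of darkness (0.0509).

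Of the remaining Aux/IAA genes, IAA20 and IAA30 encode forms without the part that is recognised for auxin-driven breakdown. IAA30 read 13.2 and 9.4 at normal CO2 in light, 11.6 and 8.5 under low CO2 in light and, in darkness, 16.6 and 23.7, with a light step of -0.66 (adjusted p = 0.234). IAA20 had a light step of -0.65 (adjusted p = 0.332) at intensities of 1.4 to 8.8. For IAA31, IAA33 and IAA34, the CO2 and light steps lay between -0.10 and 0.18, with intensities of up to 14.4.

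**Figure D4:**
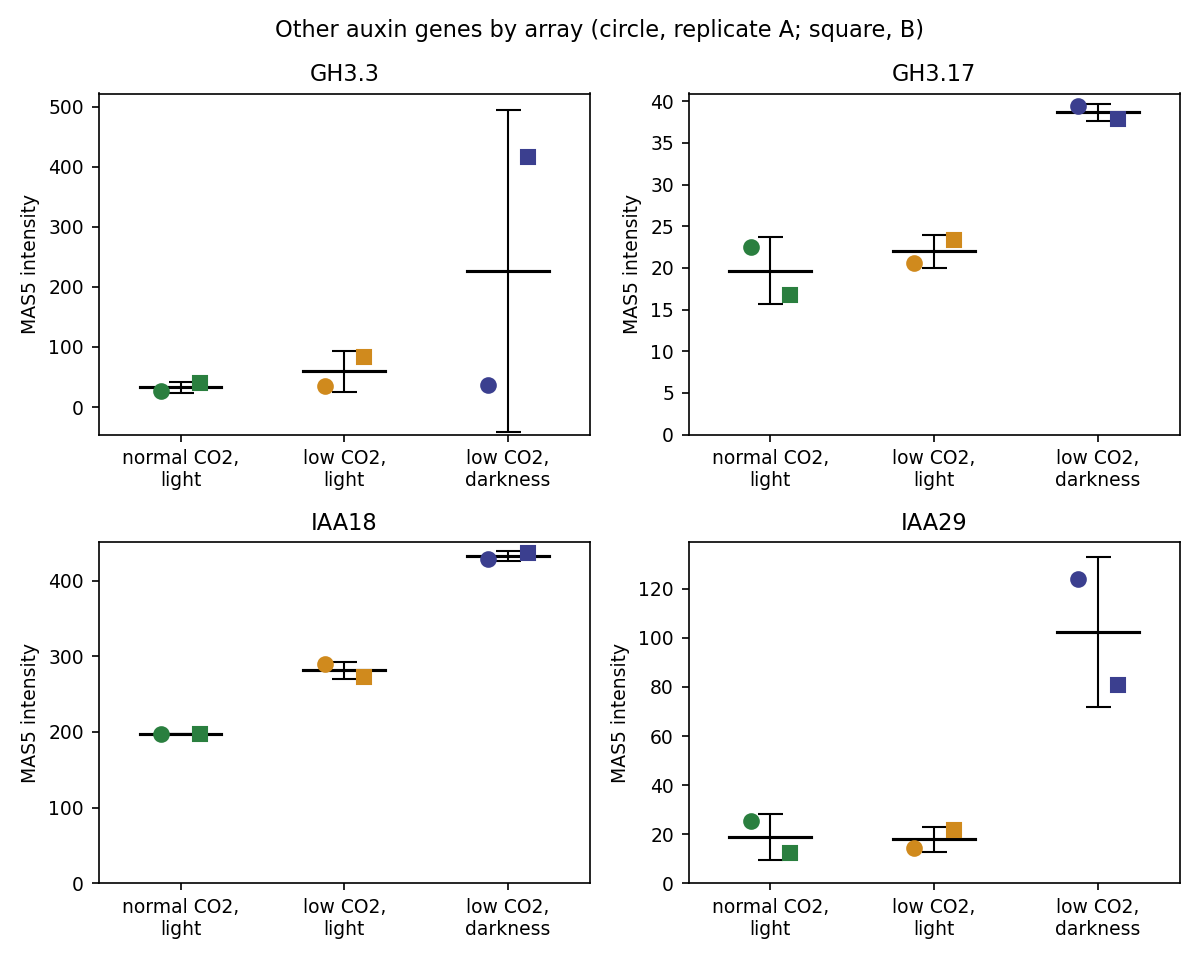
MAS5 intensities (y axes) of GH3.3, GH3.17, IAA18 and IAA29 on the 6 arrays by treatment (x axes), with circles for replicate A, squares for replicate B, long bars for group means and error bars for SD (n = 2). The panels show the single high array of GH3.3 at 416.3, the 3 separate levels of IAA18, and for GH3.17 and IAA29 dark arrays above all 4 arrays in light.

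Salicylic acid is the second kind of substrate of WES1. Of 15 listed genes of salicylate and camalexin, 2 were measured, and 0 passed in any step. BSMT1, a methyltransferase of salicylic and benzoic acid, read 6.0 and 31.8 at normal CO2 in light, 8.4 and 1.4 under low CO2 in light and, in darkness, 4.2 and 1.1. UGT74F1, which glucosylates salicylic acid, stayed between 1.1 and 4.7. Of 12 light and shade regulators the single measured one was HYH, a bZIP factor of light signalling, with 48.1 and 35.6 at normal CO2 in light, 68.9 and 126.7 under low CO2 in light and, in darkness, 63.9 and 44.1. Its CO2 step was -1.05 (limma adjusted p = 0.0827) and its light step 0.74 (adjusted p = 0.332).

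For likeness of pattern, each probe set with a single gene name and a log2 range of at least 1 was compared with WES1 by Pearson correlation over the 6 arrays. The arrays share 3 treatments. Of 4134 probe sets, 463 (11.2%) had r of at least 0.9 and 406 had r of -0.9 or lower, around a median of -0.19. The most alike was AT4G15420 (r = 0.9993), with 95.4 and 92.1 at normal CO2 in light, 150.3 and 168.4 under low CO2 in light and, in darkness, 245.3 and 269.4. It was followed by AT1G67580 (0.9965), AT2G46900 (0.9955), AT4G22750 (0.9955), AT1G65000 (0.9939), AT1G55530 (0.9933), AT1G70590 (0.9928), AT5G59830 (0.9916), AT5G50230 (0.9909) and pEARLI4 (0.9908). All 10 were in the strict order of WES1, with smaller changes, from -0.94 to -0.42 in the light step and from -1.01 to -0.46 in the CO2 step. The place just outside had r = 0.9907, and IAA18 stood at place 13.

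By distance between centred log2 profiles, which takes the size into account, the nearest gene was AT1G28260. It had 37.6 and 42.2 at normal CO2 in light, 160.8 and 170.4 under low CO2 in light and, in darkness, 285 and 407.1, at a distance of 0.72. AT2G28400 (0.84), AT2G27830 (0.90), AT4G10910 (0.91) and AT4G23870 (0.92) came next. The 10 nearest had light steps from -2.10 to -0.86 and CO2 steps from -2.48 to -1.38, and shared 0 genes with the 10 of highest correlation. With the letter means removed 5 of the 10 most correlated genes were shared, with a pseudocount of 1 there were 8, with quantile normalization 4 and with a range of at least 2 there was 1.

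**Figure D5:**
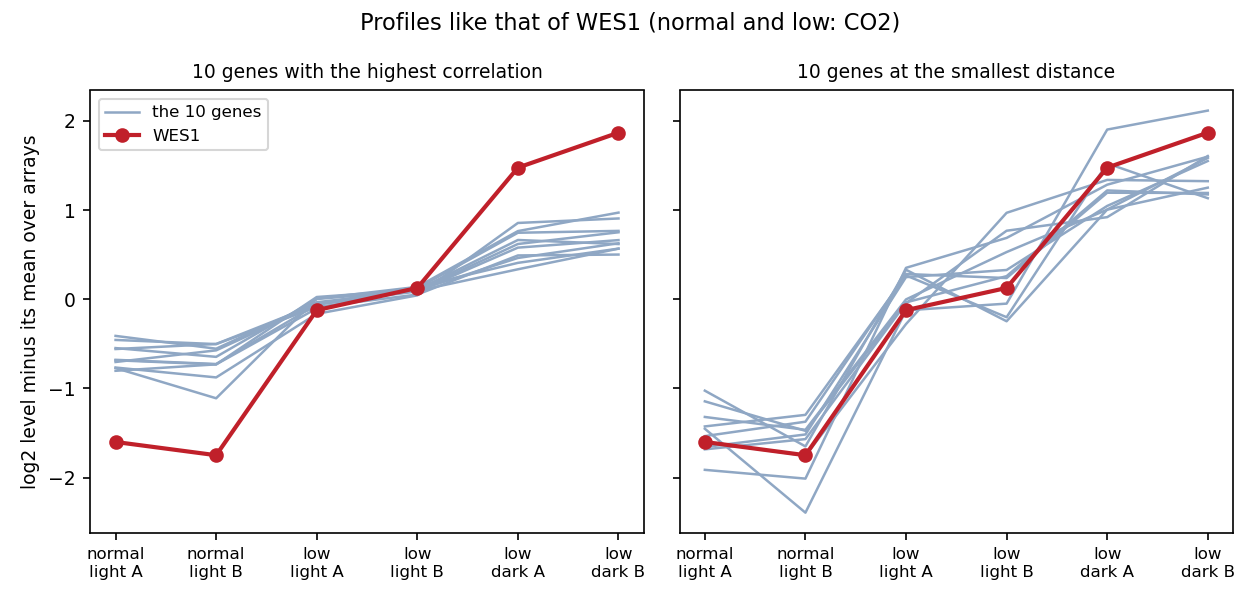
Log2 levels minus each gene's mean over the 6 arrays (y axis) on each array (x axis), for WES1 in red and in blue the 10 genes with the highest correlation (left) or the smallest distance (right). The left genes run in the same order with flatter lines, with light steps of -0.94 to -0.42, and the right ones come nearer to the size of WES1.

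Most of the genes nearest to WES1 on the chromosome were measured. Of the 5 annotated genes on each side, 7 had a named probe set. With limma 0 of 7 passed in the light step, where 0.193% of all probe sets fell and 0.849% rose, and 1 of 7 fell in the CO2 step, where 6.2% fell and 8.4% rose. This was AT4G27280, the second gene after WES1, with 26.8 and 50.7 at normal CO2 in light, 110.4 and 392.5 under low CO2 in light and, in darkness, 167.0 and 161.8 (-2.29, adjusted p = 0.0436). The adjoining genes AT4G27250 and AT4G27270 had -0.27 and 0.65 in the CO2 step (adjusted p = 0.565 and 0.167). In the light step they had 0.15 and -0.59. The farther genes AT4G27220, AT4G27240, AT4G27290 and AT4G27300 had CO2 steps from -0.75 to 0.34 and light steps from -0.30 to 0.87, with adjusted p of 0.165 and above. AT4G27290 and AT4G27300 overlap in the annotation, so their signals may not be separate.

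Across the series, replicates A and B correlated with r of 0.971 to 0.984 over probe sets. The control bioC, a bacterial spike, ranged from 66.3 to 73.8 with letter A and from 116.2 to 157.3 with letter B. WES1 was chosen for its order of groups on these arrays, so that order within each letter is no check of this split. Of the markers listed to check the tissue, RCA, the Rubisco activase of leaves, read 2891.4 to 3326.9 on all arrays and the root hair expansin EXPA7 7.8 to 17.8. The last marker measured was FMA, a stomatal lineage gene. Its values of 74.6 (A) and 67.5 (B) with normal CO2 exceeded the 51.1 and 50.6 seen when CO2 was low in light. They also exceeded its dark readings, 54.9 and 45.0. Of all probe sets, 29.6% were higher without overlap at normal than at low CO2 in light, and 31.8% than in darkness. The CO2 step of FMA, 0.43, did not pass (limma adjusted p = 0.166). Whether the share of such cells differed between treatments was not tested. Since 1 of 10 leaf, 1 of 9 root, 1 of 5 guard cell, 0 of 8 flower and 0 of 5 vasculature markers were measured, the check covers few genes.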

How the data were processed

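The authors deposited 1 linear intensity per probe set and array, and the submitters' processing notes name MAS5. No version, scaling target or detection call is given in the sources used here. Intensities trimmed by 2% at each end averaged 100.01 on every array, so no normalization was added. The number of arrays limits the precision. Of 22810 probe sets 64 were controls. Names came from the platform annotation, matched by Entrez ID to the TAIR10.1 gene table: 13513 probe sets had 1 symbol, 503 several and 8730 none.

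Values were transformed as log2(intensity + 7.3), 7.3 being the 20th percentile, which understates changes of dim probe sets. One limma 3.58.1 model (R 4.3.3, eBayes with trend, 3 group means, 6 arrays) had 3 residual degrees of freedom. It was checked on simulated data. Adjusted p-values are Benjamini-Hochberg over 22746 probe sets, all from limma. WES1 and the gene lists were chosen with earlier results of these data known. Named were all measured GH3 genes. From each other list came the members past the threshold (at most 6 a step), or the 2 of smallest p. Further genes were the 10 most like WES1 and its measured neighbours, and the remaining measured members are given by values or range. The series text calls the replicates biological. The letters do not pair the samples by any label.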

Additional observations from a re-analysis of the deposited data

How the results depend on the processing

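WES1, chosen for its fall in both steps, kept negative differences under every alternative tried, which is a description and no support for the fall. Without each array in turn its log2 difference ran from -1.87 to -1.47 in the light step, from -1.80 to -1.55 in the CO2 step and from -3.54 to -3.15 over both. The pseudocount moved its size, by construction of the scale. With 1 the light step was -1.73, the CO2 step -1.88 and both steps -3.61. With 32 they were -1.48, -1.19 and -2.67. The count of auxin genes past the threshold in the light step was 1 in place of 0, namely IAA29, with a pseudocount of 1, quantile normalization, a common median, dim probe sets left out (under the 40th percentile) or the replicate block. In the CO2 step it was 2 with dim probe sets left out, since AT5G51470 and YUC11 were then not tested, 1 without the mean-variance trend, 1 with the 4 arrays compared alone, and 0 to 2 without single arrays (0 without either array of normal CO2). Over both steps it was 1 to 3 without single arrays. For the difference between steps it was 0 with a pseudocount of 32, with dim probe sets left out, without the trend and without any 1 array, and with quantile normalization the 1 gene was YUC11, not AT5G51470.

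Counts over all probe sets moved too. In the light step 237 became 368 with a pseudocount of 1, 145 with 32, 638 with dim probe sets left out, 105 without the trend, 0 with 4 arrays (3445 at an unadjusted p under 0.05 in limma) and 0 to 99 without single arrays, the 0 being without replicate A or B of normal CO2 (3442 and 3435 at an unadjusted p). In the CO2 step 3321 became 0 to 2744 without single arrays, with 0 without either array of normal CO2 (5835 and 4779 at an unadjusted p) and 1213 without replicate B of low CO2 in light. Over both steps 4655 became 576 to 4695. With a common median the share of higher among called probe sets was 47.5% in the CO2 step, against 57.5%, and 45.7% over both steps, against 55.4%. The cause of these shifts was not tested. With the replicate block 475 probe sets were called in the light step. The A minus B differences of 2 groups correlated at 0.015 to 0.307. No label pairs the samples by letter, and the main fit did not take the letters as pairs. A shared effect of letter was not tested. AT1G48660 passed over both steps under the replicate block, where GH3.17 did not. Signal over background limits the GH3 and YUC probe sets that stay near the pseudocount.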

Other observations

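Of the 28 probe sets that, like WES1, were lower by at least 1 on the log2 scale in both steps, 14 carry a single gene name and 25 kept the strict order of the groups. Among them was PUB19, a U-box ubiquitin ligase known from drought and abscisic acid responses. It read 45.6 and 16.5 at normal CO2 in light, 172.6 and 76.3 under low CO2 in light and, in darkness, 318.3 and 304.7. MGL, a methionine gamma-lyase that breaks down methionine, read 58.4 and 40 at normal CO2 in light, 133.9 and 425 under low CO2 in light and, in darkness, 405.3 and 762.4, so that 1 array of low CO2 in light exceeded 1 dark array. The light and CO2 steps of the other named genes ran alike in AT3G05640 (-1.25 and -1.38), AT1G30250 (-1.30 and -1.39) and AT2G15830 (-1.08 and -1.10). Steps of AT5G39520 (-1.29 and -2.65) and AT3G07350 (-1.22 and -2.84) were less even. These genes were picked by the values shown, so no test is given.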
